A study of Caenorhabditis elegans with 14 samples.

Results

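Small RNA libraries of prg-1(n4503) worms of Caenorhabditis elegans made with TDP2 were compared with the library of the same strain made without it. These were the 2 libraries, of 14 in the series, that the labels give as prg-1(n4503), 1 treated and 1 untreated. All read classes on both strands were taken. A feature is a gene or piRNA on 1 strand, and 32899 features had a read in the pair, of 56268 with a read in the 10 libraries of the 5 strains that have both kinds of library. The other strains with both were tofu-6(ust94), pics-1(tm2417), erh-2(ust101) and the control, which the sample title calls n2.

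All worms were synchronised and collected as late young adults after growth at 20 °C with OP50 as food, and RNA of whole animals was size-selected at 17 to 30 nucleotides. For a TDP2 library the RNA was first dephosphorylated with alkaline phosphatase and then incubated with Tobacco Decapping plus 2 and 1 mM ATP, per the labels. An untreated library was ligated with no such step. Each side was 1 library, so neither the difference between them nor any feature in it has a replicate check, and no p-value was computed within prg-1.

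PRG-1 is the Piwi Argonaute of the worm germline that binds mature piRNAs, and without it mature piRNAs do not accumulate. A C. elegans piRNA is transcribed as a short capped precursor, which is then decapped and trimmed at both ends. Ligation of an untreated library favours RNAs with a 5′ monophosphate, such as microRNAs, whereas capped RNAs and the triphosphorylated 22G RNAs that RNA-dependent RNA polymerases make antisense to messenger RNAs are poor substrates. Removal of the cap makes capped RNAs such as piRNA precursors and spliceosomal snRNAs ligatable. RNA of a treated library had also been dephosphorylated before decapping, and RNA of an untreated library had neither step. Every ratio of treated over untreated below thus mixes the phosphatase and the decapping step. The effect of each step alone was not tested, for antisense reads, rRNA and microRNAs as for the other classes.

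The TDP2 library held 8671475 assigned reads and the untreated library 10151842, within the 7070853 to 13469619 of the 10 libraries. Reads outside the rRNA, tRNA, snRNA and snoRNA classes made up 35.5% with TDP2 and 54.5% untreated. Without the reads antisense to ncRNA genes that lie opposite such structural genes, these shares were 17.9% with TDP2 and 17.2% untreated. Reads sense to the prg-1 gene itself (chromosome I, 7585329 to 7588367 in WBcel235) numbered 103 with TDP2 and 216 untreated, a ratio of 0.558. Reads antisense to it numbered 411 with TDP2 and 26 untreated, a ratio of 18.5. Reads of a small RNA library do not test a deletion, so these counts do not check the genotype. Levels below are RPM, reads scaled to the assigned reads of the library, and ratios are TDP2 over untreated. Where a count was 0, 3 reads stood in for it and the ratio is a bound, given as at least. Such a bound holds only under this rule, and the lower limit of the exact interval can lie below it. For mature_piR-cel-8412, for example, the bound is 52.7 and that limit is 42.3. Intervals are exact 95% binomial ones and cover counting error only.

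Precursor piRNAs were 14.5-fold higher with TDP2 in prg-1 (95% interval 13.7 to 15.4), with 15720 reads in the TDP2 library and 1265 in the untreated one. They made up 0.181% of the assigned reads with TDP2 and 0.0125% untreated, or 1813 and 125 RPM. The reads spread over 1914 precursor loci with TDP2 and 195 untreated. Loci with 10 or more reads numbered 201 with TDP2 and 11 untreated, and 826 of the TDP2 loci rested on 1 read. The 10 most read loci held 36.9% of the precursor reads with TDP2 and 76.5% untreated. A single locus, pre_piR-cel-1430, held 40.6% of the untreated precursor reads, whereas the most read locus of the TDP2 library held 6.47%.

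Locus by locus, the precursors followed no common factor. The most read, pre_piR-cel-16552, had 1017 reads with TDP2 and 1 untreated, a ratio of 1191 whose counting interval ran from 213 to 47073. The precursor pre_piR-cel-16862 had 749 reads with TDP2 and 2 untreated (438, interval 121 to 3627), and pre_piR-cel-24973 had 371 with TDP2 and 1 untreated (434, interval 77.5 to 17201). These 3 were the highest ratios computed among precursors with 100 or more reads over the pair, and all rest on 1 or 2 untreated reads. Precursors with 0 untreated reads have a bound in place of a ratio and may lie higher, such as pre_piR-cel-18434 with 568 reads with TDP2 and 0 untreated (at least 222-fold higher). pre_piR-cel-15748, with 963 reads in the TDP2 library and 56 untreated, was better measured at 20.1-fold.

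A few precursors stood outside this. pre_piR-cel-1430 had 352 reads with TDP2 and 513 untreated (0.803), pre_piR-cel-16873 had 37 and 84 (0.516), and pre_piR-cel-20235 had 23 and 107 (0.252). All 3 had more reads in the untreated library than in the TDP2 library. Of the 1981 precursor features listed with a read in the pair, 67 had 30 or more reads over both libraries. Of these 67, 60 were 4-fold or more higher with TDP2 and none was 4-fold lower. The minimum of 30 reads was met by 63 precursors in the TDP2 library and by only 5 in the untreated one, of which 1 was 4-fold higher, so most precursors passed it through their TDP2 reads.

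For scale, 36.0% of the 11193 features with 30 reads in the pair were 4-fold or more higher with TDP2 and 2.66% were 4-fold or more lower. The 2 strands differed in this background. Of 7292 sense features, 9.48% were 4-fold higher and 2.51% 4-fold lower, with a median log2 ratio of −0.02. Of 3901 antisense features, 85.7% were 4-fold higher and 2.95% 4-fold lower, with a median of 4.24. Most antisense features met the minimum through their TDP2 reads, which favours higher ratios. Of the 3617 antisense features with 30 reads in the TDP2 library 3235 were 4-fold higher, whereas of the 520 with 30 reads in the untreated library 97 were 4-fold higher and 114 were 4-fold lower, with a median ratio of 1.32.

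**Figure D1:**
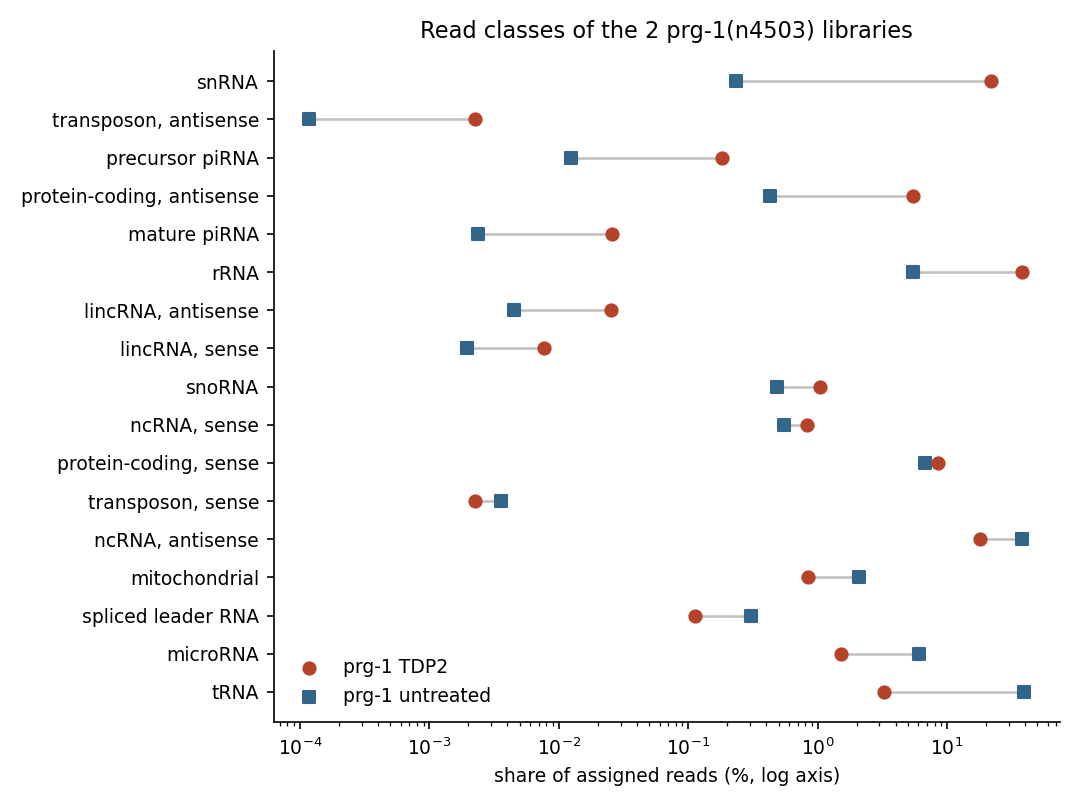
Share of assigned reads (percent, log axis) of each read class in the prg-1(n4503) TDP2 library (circles) and the prg-1(n4503) untreated library (squares), 1 library each. The snRNA pair lies farthest apart toward TDP2 (21.8% with TDP2 and 0.235% untreated) and the tRNA pair farthest apart toward untreated (3.27% with TDP2 and 39.3% untreated).

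Mature piRNA features were few in prg-1, and they too were higher with TDP2. They held 2250 reads with TDP2 and 241 untreated, 0.0259% and 0.00237% of the assigned reads, or 259 RPM with TDP2 and 23.7 RPM untreated. The ratio was 10.9 (interval 9.57 to 12.5). Features with a read numbered 495 with TDP2 and 157 untreated. No mature feature reached 10 reads in the untreated library, against 33 in the TDP2 library, and 121 of the 157 untreated features held 1 read. The mature piRNA signal of the untreated prg-1 library was thus close to single reads over many loci.

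The mature reads with TDP2 were uneven. mature_piR-cel-15879 alone had 648 reads with TDP2 and 7 untreated (108, interval 52.3 to 271) and made up 28.8% of the mature reads of the TDP2 library. Its precursor feature had 147 reads with TDP2 and 3 untreated (57.4, interval 19.2 to 281). mature_piR-cel-8412 had 135 reads with TDP2 and 0 untreated, at least 52.7-fold higher, and its precursor feature had no read in either library. mature_piR-cel-25155 had 74 reads with TDP2 and 0 untreated (at least 28.9-fold higher), beside 419 precursor reads with TDP2 and 0 untreated (at least 164-fold higher). So 1 of these 3 loci had mature reads with no precursor reads. Both mature_piR-cel-15879 and mature_piR-cel-8412 were also higher with TDP2 in the 4 other strains, at 4.04-fold to 65.5-fold for the first and 12.4-fold to 68.6-fold for the second. At these 2 features the difference was thus seen with and without the prg-1 mutation.

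Precursor reads outnumbered mature reads in both prg-1 libraries. There were 6.99 precursor reads per mature read with TDP2 (interval 6.68 to 7.31) and 5.25 untreated (4.57 to 6.05), a comparison that needs no scaling between libraries. Without the most read precursor and the most read mature feature of each library these values were 9.18 with TDP2 and 3.23 untreated. Of the 495 mature features with reads in the TDP2 library, 172 also had precursor reads there, and these held 63.6% of the mature reads. In the untreated library 28 of 157 did, with 27.0% of the mature reads.

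The loci that make piRNAs in control worms were looked at through the 521 loci whose mature feature had at least 10 reads in the untreated control library. Their precursors had 1609 reads from 195 loci in prg-1 TDP2 and 181 reads from 35 loci in prg-1 untreated, 186 and 17.8 RPM. In the TDP2 library of the control, the same precursors had 1269 reads from 194 loci. Their mature features held 141 reads in prg-1 TDP2 and 90 in prg-1 untreated. Among the 6 loci with most mature reads in untreated control, piR-cel-1793 had 41 precursor reads in prg-1 TDP2 and 0 in prg-1 untreated, piR-cel-5504 had 23 and 0, and piR-cel-6009 had 9 and 0. The other 3 (piR-cel-4375, piR-cel-5107 and piR-cel-3421) had no precursor read in either prg-1 library, and none of the 6 exceeded 5 mature reads in either.

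Reads antisense to precursor features numbered 5229 with TDP2 and 69 untreated (88.7-fold). One feature, pre_piR-cel-16614, held 3855 of these TDP2 reads, or 73.7%, and had 0 untreated. A precursor feature can lie within or beside another gene, and whether such reads belong to one was not tested.

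**Figure D2:**
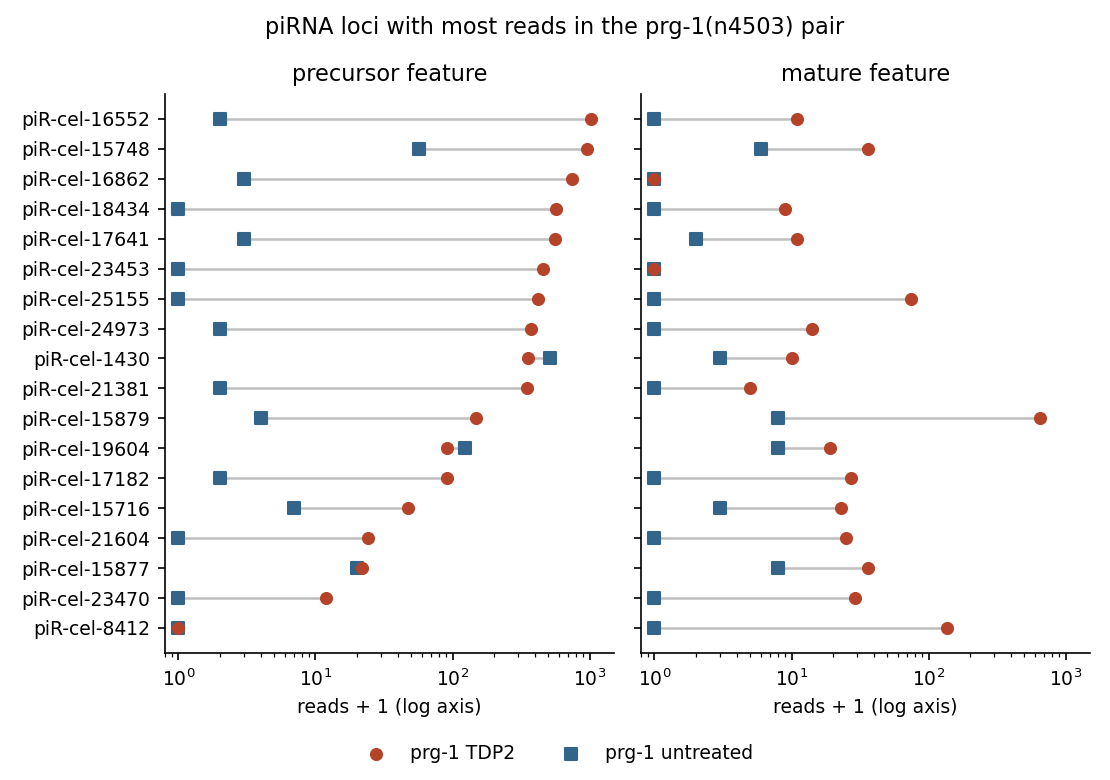
Reads plus 1 (log axis) of the precursor feature (left) and the mature feature (right) of the piRNA loci with most reads in the pair, in prg-1(n4503) TDP2 (circles) and prg-1(n4503) untreated (squares), 1 library each. Precursors such as piR-cel-16552 (1017 reads with TDP2 and 1 untreated) separate widely, piR-cel-1430 does not (352 with TDP2 and 513 untreated), and piR-cel-8412 has 135 mature reads with TDP2 and no precursor read.

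Antisense reads of protein-coding genes were 12.6-fold higher with TDP2 in prg-1, with 473474 reads in the TDP2 library and 43872 in the untreated one. They were 5.46% of the assigned reads with TDP2 and 0.432% untreated. Within the reads of protein-coding genes alone, 39.2% were antisense with TDP2 and 6.00% untreated. Genes with an antisense read numbered 9791 with TDP2 and 6727 untreated, and genes with 10 or more numbered 4896 with TDP2 and 975 untreated. Sense reads covered about as many genes in each library, with 7497 genes at 10 or more reads with TDP2 and 7140 untreated. The added antisense reads were thus spread over many genes, and the 10 most read held 10.6% of them with TDP2 and 15.4% untreated.

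Of 3398 protein-coding genes with 30 antisense reads over the pair, 3215 were 4-fold higher with TDP2 and 44 were 4-fold lower, with a median log2 ratio of 4.36. By reads over the pair, the median ratio was 18.1 for genes with 30 to under 100 reads, 23.7 for those with 100 to under 1000 and 28.4 for the 31 genes with 1000 or more. The minimum of 30 reads was met by 3151 genes in the TDP2 library, of which 3116 were 4-fold higher and 1 was lower, but by only 143 in the untreated library. Of those 143, 60 were 4-fold higher with TDP2, 43 were 4-fold lower and 40 were neither, with a median ratio of 0.92. A minimum in either library favours genes that are higher in that library, so these counts bound the picture from both sides and are no comparison of 2 kinds of gene.

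The most read antisense gene was Y38C9A.1, with 22831 reads with TDP2 and 196 untreated (136-fold). Y54G11A.14 (chromosome II, 14318158 to 14321018, plus strand, WBcel235) had 6542 with TDP2 and 57 untreated, 134-fold. Among the highest ratios, T16G12.3 (chromosome III, 10050621 to 10054369, plus strand) had 2319 reads with TDP2 and 11 untreated (247-fold), and C03A7.2 (chromosome V, 5181912 to 5183717, plus strand) had 731 with TDP2 and 3 untreated (285, interval 97.2 to 1386). sop-3, which encodes a Mediator subunit, had 622 with TDP2 and 2 untreated (364, interval 100.4 to 3013). T16G12.3 and Y38C9A.1 were also higher with TDP2 in the other strains, at 6.86-fold to 73.7-fold and 3.99-fold to 46.1-fold, all below their prg-1 values.

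pkd-2, also among the 3 most read antisense genes over the pair and a polycystin channel gene of male sensory neurons, had 4080 antisense reads with TDP2 and 3287 untreated, a ratio of 1.45 (0.969 under TMM scaling and 5.81 under microRNA scaling). Among genes with 100 or more antisense reads over the pair, the lowest ratios were those of K11C4.1 (chromosome V, 6897000 to 6898497, plus strand), with 1 read with TDP2 and 135 untreated (0.00867), C38C10.3 with 11 and 195 (0.0660), and K12C11.5 with 20 and 296 (0.0791). F43E2.6, chosen after its values were seen, held the most untreated antisense reads of the 44 lower genes, with 209 reads with TDP2 and 1072 untreated (0.228). Only 4 of those 44 genes had 30 sense reads in the pair, and none of the 4 was lower on the sense strand.

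Genes of the small RNA machinery were higher on the antisense strand as a block, like the rest of the antisense features. All 22 genes of the 22G pathway list with 30 antisense reads, of 27 listed, were 4-fold higher with TDP2. Their median log2 ratio was 4.44, against 4.24 for all antisense features and 4.36 for protein-coding ones. wago-4, an Argonaute that binds 22G RNAs, had 1151 antisense reads with TDP2 and 47 untreated (28.7-fold). hrde-1, the nuclear germline Argonaute, had 784 with TDP2 and 38 untreated (24.2-fold). mut-15, which encodes a component of the Mutator foci, had the lowest ratio with 100 and 13 reads (9.01-fold). ekl-1, a Tudor-domain partner of the RNA-dependent RNA polymerases, had the highest with 52 reads with TDP2 and 1 untreated (60.9, interval 10.5 to 2450). All 18 measured genes of the piRNA pathway list, of 21, were likewise 4-fold higher (median 4.49). pid-5 had 817 antisense reads with TDP2 and 27 untreated (35.4-fold), pid-2 had 602 and 29 (24.3-fold), and deps-1, a P granule gene, had 207 and 27 (8.98-fold).

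Germline and oocyte genes gave the same picture, with 29 of 29 measured genes, of 31 listed, 4-fold higher on the antisense strand (median 4.58). glh-4, a Vasa-like helicase of P granules, had 985 antisense reads with TDP2 and 45 untreated (25.6-fold), and its relative glh-2 had 203 and 3 (79.2-fold). rme-2, the yolk receptor of oocytes, had 476 with TDP2 and 18 untreated (31.0-fold). nos-2, a Nanos homologue, had the lowest ratio with 56 and 10 (6.56-fold). Of the ribosomal protein genes 47 of 47 measured, of 76 listed, were 4-fold higher (median 4.16), from rps-1 with 28 reads with TDP2 and 7 untreated (4.68-fold) to rpl-13 with 70 and 1 (82.0-fold). All 4 measured histone genes were higher, from his-24, the linker histone, with 35 and 5 (8.20-fold) to his-74 with 161 and 2 (94.2-fold). None of these lists had a member that was 4-fold lower, and most members met the minimum through their TDP2 reads. Their shares stand beside 85.7% of all antisense features and 94.6% of protein-coding ones.

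Sperm genes had antisense ratios near 1 when scaled to assigned reads. Of 11 genes with 30 antisense reads, of 58 listed, 1 was 4-fold higher with TDP2 and 1 was 4-fold lower, with a median log2 ratio of 0.07. Summed over the 58, antisense reads numbered 643 with TDP2 and 582 untreated, a ratio of 1.29 that was 0.863 under TMM scaling and 5.17 under microRNA scaling. spe-41, a sperm calcium channel gene, was the higher one with 36 reads with TDP2 and 1 untreated (42.1, interval 7.10 to 1710). ssp-31, one of the sperm-specific small proteins, was the lower one with 9 with TDP2 and 60 untreated (0.176), and ssp-16 had 35 and 73 (0.561). Whether the sperm list differs from the other lists was not tested. Among genes of the body, 1 of 3 measured muscle genes was 4-fold higher, namely the actin gene act-1 with 47 and 2 reads (27.5-fold), as was the 1 measured collagen gene, col-111, with 621 and 9 (80.8-fold). No vitellogenin, gut or heat shock gene on the lists had 30 antisense reads.

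A pair of well-known endogenous siRNA targets was also read. E01G4.5 had 75 antisense reads with TDP2 and 4 untreated (21.95-fold), and bath-45 had 21 and 2 (12.3-fold, below the minimum of 30 reads).

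**Figure D3:**
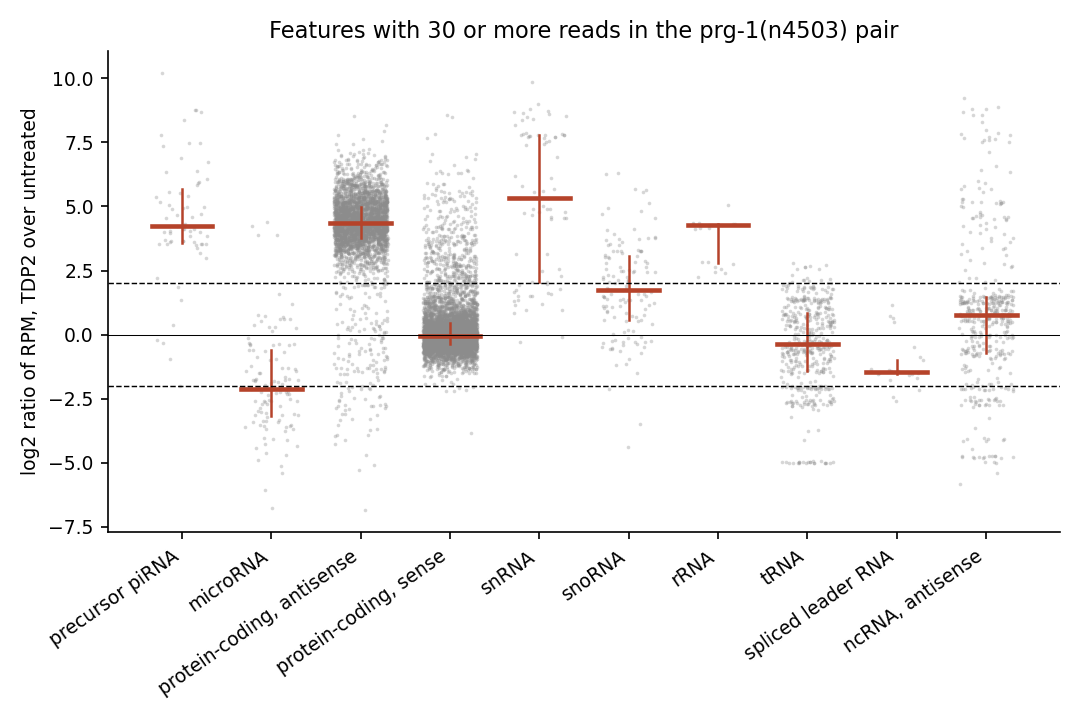
Log2 ratio of RPM, TDP2 over untreated, of each feature with 30 or more reads in the prg-1(n4503) pair, by class (grey points), with the median (horizontal bar) and the quartiles (vertical line). Dashed lines mark 4-fold. The protein-coding antisense features centre at 4.36 and the sense features of the same class at −0.04, the microRNAs at −2.11 and the snRNAs at 5.32.

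Sense reads of protein-coding genes differed little in share. They numbered 733798 with TDP2 and 686959 untreated, a ratio of 1.25 that was 0.834 under TMM scaling and 5.00 under microRNA scaling. Of 6208 genes with 30 sense reads, 431 were 4-fold higher with TDP2, 6 were 4-fold lower and the median log2 ratio was −0.04. Among the 172 genes with 1000 or more reads over the pair 41 were 4-fold higher, a sum that itself grows with the TDP2 reads. Counted by the untreated library alone, 87 of 4187 genes with 30 reads there were 4-fold higher and 4 were 4-fold lower.

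ule-4, a gene of the uterine lumen (chromosome IV, 13646396 to 13647658, minus strand, WBcel235), had the most sense reads of any protein-coding gene with TDP2, 26615, against 136 untreated, a ratio of 229. gplb-1, a glycoprotein hormone beta subunit gene, had 610 with TDP2 and 2 untreated (357, interval 98.4 to 2955), and fipr-13 had 323 and 1 (378, interval 67.4 to 14981). The yolk protein genes, which are among the most transcribed of the adult gut, were near parity. vit-2 had 10847 reads with TDP2 and 11591 untreated (1.10), and vit-6 had 9081 and 12063 (0.881). Among genes with 100 or more sense reads over the pair, the lowest ratio was that of Y54G2A.10 (chromosome IV, 2799689 to 2801039, plus strand), with 2211 with TDP2 and 10625 untreated (0.244). cla-1, an active zone protein gene, had 25 and 86 (0.340), and idhg-1, an isocitrate dehydrogenase subunit gene, had 73 and 222 (0.385).

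Collagen and cuticle genes held 49819 sense reads with TDP2 and 13918 untreated, 4.19-fold. Of 74 with 30 reads, out of 162 listed, 21 were 4-fold higher (28.4%) and none was 4-fold lower. Among all sense features the share 4-fold higher was 9.48%, and among protein-coding ones 6.94%. The median log2 ratio was 0.89, beside −0.02 for all sense features and −0.04 for protein-coding ones. Genes can meet the minimum of 30 reads through their TDP2 reads, which favours higher ratios. Whether the collagen and cuticle list differs from all sense features was not tested. col-119 had 15959 reads with TDP2 and 1170 untreated (15.97-fold), col-184 had 3555 and 398 (10.5-fold), and col-3 had the highest ratio with 1820 and 46 (46.3-fold). At the other end, col-109 had 9 with TDP2 and 25 untreated (0.421). The sum over the list was also higher with TDP2 in the other strains, by 1.82-fold in tofu-6(ust94), by 2.04-fold in pics-1(tm2417), by 3.59-fold in erh-2(ust101) and by 5.49-fold in control, so the prg-1 value lies inside that range.

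Sperm genes held 2668 sense reads with TDP2 and 889 untreated (3.51-fold). Of 32 with 30 reads, out of 58 listed, 15 were 4-fold higher (46.9%, beside 9.48% of all sense features and 6.94% of protein-coding ones). The others were not, and none was 4-fold lower, with a median of 1.91. smz-1, a sperm meiosis gene, had 340 reads with TDP2 and 10 untreated (39.8-fold), so it met the minimum of 30 reads through the TDP2 library. A minimum met in this way favours higher ratios, and whether the list differs from all sense features was not tested. msp-36, of the major sperm proteins that drive sperm crawling, had 169 and 54 (3.66-fold), and msp-64 had 12 and 31 (0.453). Major sperm protein genes are near-identical copies, so the share of each is uncertain.

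Other lists centred near 0 on the sense strand. No gene was 4-fold higher or lower among 25 of the 22G pathway (median −0.28), 31 of germline and oocyte (−0.30), 75 of ribosomal proteins (−0.24) or 9 of vitellogenin and gut (−0.52). perm-2, of the eggshell permeability barrier, came closest with 1012 reads with TDP2 and 307 untreated (3.86-fold). Of the piRNA pathway 1 of 19 was 4-fold higher (5.26%, beside 9.48% of all sense features and 6.94% of protein-coding ones), with a median of 0.10. This was pid-1, a piRNA biogenesis gene, which had 219 with TDP2 and 16 untreated (16.02-fold). Of the histone genes 7 of 70 were higher (10.0%, beside 9.48% of all sense features and 6.94% of protein-coding ones), with a median of 0.18. The 2 most read were his-47 with 2579 and 477 (6.33-fold) and his-67 with 1859 and 386 (5.64-fold), and the lowest ratio was that of his-14 with 25 and 57 (0.513). Of the muscle genes 1 of 16 was higher (6.25%, beside the same 9.48% and 6.94%), with a median of −0.21. This was the tropomyosin gene lev-11, with 2862 and 552 (6.07-fold), whereas the myosin gene unc-54 had 2788 and 2845 (1.15).

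MicroRNAs, which carry a 5′ monophosphate, were lower with TDP2 in prg-1. They held 131280 reads, 1.51% of the library, with TDP2 and 614265 reads, 6.05%, untreated, a ratio of 0.25. Of 175 microRNAs with a read, 110 had 30 in the pair. Of these 110, 56 were 4-fold lower (50.9%, beside 2.51% of all sense features) and 4 were 4-fold higher (3.64%, beside 9.48%). Their median log2 ratio was −2.11. By the untreated library alone, 55 of 101 were 4-fold lower and none was 4-fold higher. By the TDP2 library alone, 30 of 74 were 4-fold lower and 4 were 4-fold higher, with a median ratio of 0.306. A minimum in either library favours microRNAs that are higher in that library. Of the 110 microRNAs, 56 thus lay past the line for 4-fold lower and the rest did not, so the difference was far from even.

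mir-1, the muscle microRNA, had 7676 reads with TDP2 and 114443 untreated (0.0785), and mir-58, the most read of its bantam-like family without TDP2, had 4522 and 114081 (0.0464). mir-70 had 3569 with TDP2 and 48587 untreated (0.0860). The lowest ratios among microRNAs with 100 reads were those of mir-59 with 26 and 3273 (0.0093), mir-79 with 4 and 195 (0.024) and mir-1820 with 21 and 867 (0.0284). The highest were those of F39B1.3, an entry in the microRNA class, with 95 and 37 (3.01), mir-1829.2 with 89 and 45 (2.32), and mir-34, a stress and ageing microRNA, with 491 and 338 (1.70). The 4 that were 4-fold higher had fewer reads: mir-260 with 89 with TDP2 and 7 untreated (14.9-fold), and mir-1021, mir-58.2 and mir-5549 with 54, 48 and 38 with TDP2 and 0 untreated each, at least 21.1-fold, 18.7-fold and 14.8-fold higher.

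Members of the same family differed widely. let-7, the founding heterochronic microRNA, had 5292 reads with TDP2 and 5197 untreated (1.19, interval 1.15 to 1.24), while its relative mir-84 had 324 and 3764 (0.101). lin-4 had 448 with TDP2 and 786 untreated (0.667), while mir-237 of the same seed family had 305 and 4390 (0.0813). In the mir-35 family of oocytes and embryos, mir-35 had 19103 and 28144 (0.795), mir-41 had 316 and 298 (1.24), and mir-39 had 1955 and 14766 (0.155). In the mir-51 family, mir-51 had 7729 and 7405 (1.22), whereas mir-52 had 1665 and 11632 (0.168). All counting intervals within these pairs were apart.

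Within the microRNA reads themselves, which needs no scaling, the balance moved between families. The mir-58 family made up 10.4% of the microRNA reads with TDP2 and 25.9% untreated, and mir-1 made up 5.85% and 18.6%. The mir-35 family made up 23.3% with TDP2 and 14.3% untreated, the mir-51 family 9.33% and 4.83%, and the let-7 family 4.49% and 1.56%. The order of the microRNA changes in prg-1 resembled that in 3 other strains, as a description over microRNAs with reads in both pairs. Pearson's r was 0.82 with erh-2 (75 microRNAs), 0.77 with pics-1 (79) and 0.77 with control (77), and 0.39 with tofu-6(ust94) (78). Spearman's rho was 0.85, 0.79, 0.76 and 0.36 in the same order. The direction was not alike in control, where the microRNA class was 2.08-fold higher with TDP2. Over the 77 microRNAs shared with control, the median log2 ratio was 0.98 in control and −1.98 in prg-1. The pairs share no library, but they share the sequences and the protocol.

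**Figure D4:**
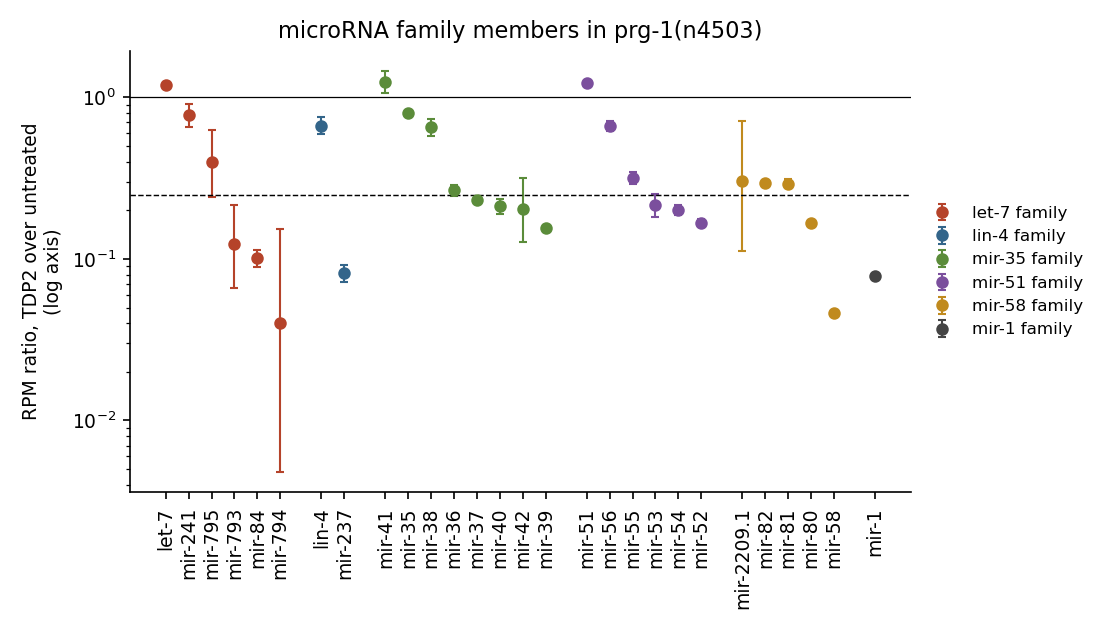
Ratio of RPM, TDP2 over untreated (log axis), of microRNAs of 6 families in prg-1(n4503), 1 library each side, with 95% counting intervals. The dashed line marks 4-fold lower and the solid line parity. let-7, mir-41 and mir-51 lie above parity (1.19, 1.24 and 1.22), whereas mir-58, mir-237 and mir-1 lie at 0.0464, 0.0813 and 0.0785.

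The snRNA class, which includes the capped spliceosomal snRNAs but also other entries such as smy-7, had the widest difference of any sense class. The class held 1894249 reads (21.8%) with TDP2 and 23847 (0.235%) untreated, a ratio of 93.0. Of 77 snRNA features with 30 reads, 58 were 4-fold higher (75.3%, beside 9.48% of all sense features) and none was 4-fold lower. Among the 45 with 30 untreated reads, 43 were higher, with a median ratio of 169. F56H6.14 had 90344 reads with TDP2 and 488 untreated (217-fold), and T14B4.10 had 89685 and 267 (393-fold). F08G2.9 had 88867 with TDP2 and 484 untreated (215-fold). W07G1.24, chosen after its values were seen, had 87392 and 111 (922-fold). The snRNA M163.13, also chosen so, was not higher, with 10186 with TDP2 and 12556 untreated (0.95). Copies with nearly equal counts may share reads, so these describe groups of copies.

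Ribosomal RNA was 7.04-fold higher, with 38.2% of the reads with TDP2 and 5.43% untreated, and all 23 rRNA features were 4-fold higher. rrn-3.1, the large subunit rRNA gene, had 1548671 reads with TDP2 and 257217 untreated (7.05-fold), and rrn-1.1, the small subunit gene, had 320976 and 69730 (5.39-fold). F31C3.14 had 372026 and 61794 (7.05-fold). The 5S genes, named rrn-4, had ratios of 17.5 to 32.8. snoRNAs were 2.14-fold higher, with 60 of 131 features 4-fold higher (45.8%). The 3 that were 4-fold lower made up 2.29%, near the 2.51% of all sense features. B0250.19 (chromosome V, 20480009 to 20480133, plus strand, WBcel235) had 11754 reads with TDP2 and 265 untreated (51.9-fold), C05H8.3 had 6116 and 4431 (1.62), and ZK265.10 had 854 and 11181 (0.0894).

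Transfer RNA had the lowest ratio of any class. Its reads made up 3.27% with TDP2 and 39.3% untreated, 12-fold lower with TDP2. F01G12.t1 had 4419 reads with TDP2 and 160901 untreated (0.0322), F52E10.t3 had 4363 and 159732 (0.0320), and ZK783.t1 had 4440 and 160136 (0.0325), near-equal counts of copies that may share reads. The drop rested on part of the class: 101 of 487 tRNA features were 4-fold lower (20.7%, beside 2.51% of all sense features). Another 17 were 4-fold higher (3.49%, beside 9.48%), and the median log2 ratio was −0.35. Reads filed as antisense to ncRNA genes were lower too, at 17.9% with TDP2 and 38.2% untreated (0.469, and 1.87 under microRNA scaling). Of these, 98.3% with TDP2 and 97.6% untreated lay on ncRNA genes annotated opposite a structural gene, 345762 and 3762403 opposite tRNA genes and 1149375 and 6715 opposite snRNA genes. K08B5.4, the most read of these ncRNA features, had 8365 reads with TDP2 and 171393 untreated (0.0571). Counted with the reads opposite them, tRNA genes took 7.26% of the library with TDP2 and 76.4% untreated, and snRNA genes took 35.1% and 0.301%. In the TDP2 libraries of the other strains that snRNA share was 9.24% (tofu-6(ust94)), 10.8% (pics-1), 26.1% (erh-2) and 9.0% (control).

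Not every capped RNA class was higher. Spliced leader RNAs, which donate the trimethylguanosine-capped leader in trans-splicing, held 9744 reads with TDP2 and 30980 untreated, a ratio of 0.368 (1.47 under microRNA scaling). Of 24 features none was 4-fold higher and 3 were 4-fold lower (12.5%, beside 2.51% of all sense features). sls-1.6 had 882 with TDP2 and 2811 untreated (0.367), sls-2.4 had 60 and 424 (0.166), and sls-2.13 had 23 and 12 (2.24). Mitochondrial transcripts were lower as well, with 73176 reads with TDP2 and 213057 untreated (0.402, and 1.61 under microRNA scaling). MTCE.33 had 17900 and 45007 (0.466), MTCE.26 had 6327 and 33533 (0.221), and MTCE.7 had 18042 and 20199 (1.05).

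Long noncoding and transposon features had few reads. The transposon entry F44E2.2a had 196 antisense reads with TDP2 and 12 untreated (19.1-fold), but 194 sense reads with TDP2 and 363 untreated (0.626, and 2.50 under microRNA scaling). Antisense reads of lincRNAs were 5.65-fold higher, with linc-22 at 1109 with TDP2 and 48 untreated (27.0-fold). F08G2.13, the most read sense ncRNA, had 20948 reads with TDP2 and 5612 untreated (4.37-fold). Sense reads of lincRNAs were 3.96-fold higher, with linc-169 at 199 and 8 (29.1-fold).

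The scaling decides how far these ratios sit from 1. The median log2 ratio of all 11193 features was 0.46. Scaling to the reads outside the 4 structural classes moved it by 0.62, leaving out also the reads opposite structural genes by −0.05, scaling to microRNA reads by 2.00 and TMM scaling by −0.58. Of the features past 4-fold, 93.1% were higher with TDP2, against 99% under microRNA scaling and 90.3% under TMM scaling.

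Set beside the 4 other strains, prg-1 had the opposite sign in 1 class. The mature piRNA share had a log2 ratio, TDP2 over untreated, of 3.45 in prg-1, against −2.72 in tofu-6(ust94), −2.59 in erh-2, −2.04 in pics-1 and −1.24 in control. Under microRNA scaling these become 5.45 in prg-1 and 0.00 in tofu-6(ust94), 0.90 in erh-2, −0.57 in pics-1 and −2.30 in control, so the opposite sign of erh-2 depends on the scaling. The levels behind it differ mostly without TDP2: mature piRNA made up 0.00237% in untreated prg-1 and 0.120% to 0.403% in the 4 other untreated strains. With TDP2 it made up 0.0259% in prg-1, and 0.0293% in pics-1, 0.0380% in erh-2, 0.0427% in tofu-6(ust94) and 0.171% in control. Of the 2250 mature reads in prg-1 TDP2, 141 lay at the 521 loci with 10 or more mature reads in untreated control. In prg-1 untreated, 90 of the 241 mature reads did. Precursor piRNA, by contrast, had a log2 ratio of 3.86 in prg-1, within the 2.26 to 3.93 of the others. Scaled to reads outside the 4 structural classes it was 4.48 in prg-1, above the 2.85 to 3.87 of the others, and without the reads opposite structural genes it was 3.81, against 2.47 to 3.44. Under microRNA scaling it was 5.86, within 2.87 to 6.86.

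Scaled to assigned reads and leaving aside reads antisense to mitochondrial genes, 6 other class and strand sums in prg-1 lay outside the range of the 4 other strains. Under microRNA scaling all 6 lay inside that range. snRNA (6.54, against 4.08 to 5.43), rRNA (2.82, against 0.72 to 2.02) and snoRNA (1.10, against 0.38 to 0.90) lay above it, as did reads antisense to snoRNA genes (3.23, against 2.72 to 3.11). Mitochondrial transcripts (−1.31, against −0.96 to 0.35) and reads antisense to spliced leader genes (−1.36, against −0.96 to 0.09) lay below it, but inside it also when scaled to the reads outside the 4 structural classes. Under microRNA scaling snRNA was at 8.54 in prg-1, against 3.50 to 8.91, and rRNA at 4.81, against 0.96 to 5.29. Scaled to assigned reads, protein-coding antisense (3.66, against 2.71 to 5.57), microRNA (−2.0, against −3.49 to 1.06) and tRNA (−3.59, against −3.99 to −2.01) lay inside it. Reads antisense to mitochondrial genes, with only 9 reads with TDP2 and 24 untreated in prg-1, were at −1.19, below the −1.11 to 2.71 of the others. A permutation test of 1 strain against 4 cannot give an exact p under 0.2, so none is given for these classes.

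**Figure D5:**
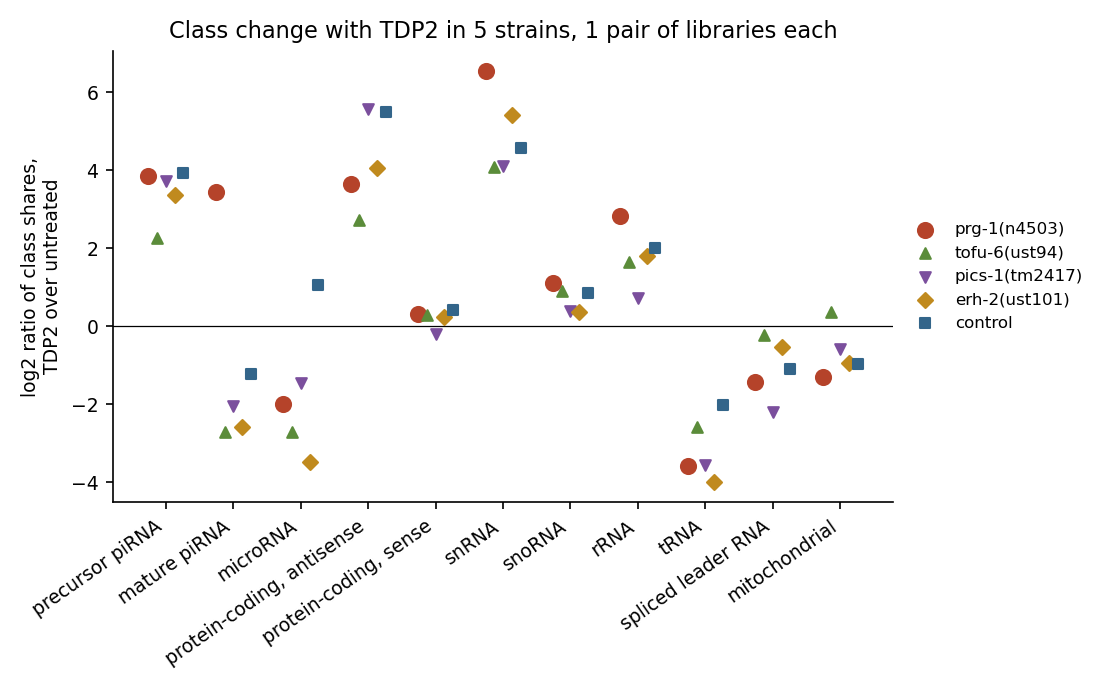
Log2 ratio of class shares, TDP2 over untreated, in 5 strains with 1 pair of libraries each. The prg-1(n4503) point for mature piRNA is at 3.45 and the 4 others lie between −2.72 and −1.24, whereas for precursor piRNA prg-1 lies at 3.86 and the others between 2.26 and 3.93.

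Feature by feature, edgeR's quasi-likelihood test of the difference between the TDP2 change in prg-1 and the mean change in the 4 other strains called none of 21837 features at an adjusted p of 0.05, higher or lower (0% and 0%). At an unadjusted p under 0.05, 120 were higher in prg-1 and 349 lower. The Wald test of DESeq2 called 1 feature in each direction, the snoRNA B0250.19 higher and F53G12.8 antisense lower (adjusted p = 0.0215 for both). B0250.19 was 51.9-fold higher with TDP2 in prg-1, against ratios of 4.57 (tofu-6(ust94)), 0.915 (pics-1), 2.12 (erh-2) and 1.32 (control). Leaving out the tofu-6(ust94) pair changed the edgeR count to 4 features higher and 46 lower, of 20873 tested. Of the 46, 37 were protein-coding antisense. In the fit over all 10 libraries that class made up 7965 of the 21837 features tested, and mature piRNAs on the sense strand made up 670. The 4 higher ones were mature piRNAs (piR-cel-2934, piR-cel-4136, piR-cel-7072 and piR-cel-8403) with 5 to 9 reads in prg-1 TDP2 and 0 in prg-1 untreated.

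The examples that follow, chosen after their values were seen, are lower ones with few antisense reads in either prg-1 library. The collagen gene col-71 (chromosome II, 3500077 to 3502570, minus strand, WBcel235) had 3 antisense reads in prg-1 TDP2 and 4 in prg-1 untreated, against TDP2 counts of 919 (tofu-6(ust94)), 6049 (pics-1), 4387 (erh-2) and 2041 (control) and 1.13 to 8.24 RPM in the untreated libraries of those strains. W03C9.1 (chromosome II, 11960990 to 11962128, minus strand) had 1 in prg-1 TDP2 and 13 in prg-1 untreated, against 142, 1915, 854 and 841 in the same order of strains. Y37D8A.6 had 1 and 4 in prg-1, against 436, 4520, 1867 and 957, and F02C12.3 had 2 and 4, against 1614, 5134, 2691 and 2093. csp-3, a caspase homologue, had 0 and 7 in prg-1, against 49, 140, 60 and 124. All had an adjusted p = 1 in edgeR over the 10 libraries. Over the 37 protein-coding antisense features, the prg-1 TDP2 library held a median of 3 reads and at most 37. Low prg-1 values are what the test selected here, and not every such gene was high in each other strain: Y81G3A.1 had 9 antisense reads in prg-1 TDP2, against 2 in both tofu-6(ust94) and erh-2 TDP2.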

How the data were processed

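The authors deposited for each library whole-number counts of reads per transcript or piRNA on each strand, and a table of the same counts by class. The submitters' processing notes name Bowtie2 as the tool. Not given in the sources used here are its version, the build of the genome, how reads matching several places were handled, and which tool counted them. Antisense counts can belong to an overlapping gene, and copies can share reads, so single copies are uncertain. An empty antisense cell was read as 0. Counts were summed per gene, class and strand over the 10 libraries of 5 strains. In both prg-1 libraries all 26 class sums equalled the deposited class tables after sense and antisense were swapped for 7 rRNA features. Left out were 3 entries with no class. The WBcel235 annotation gave names and coordinates and holds 44852 of the 45510 gene identifiers; 229 genes lay in more than 1 class.

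Counts were scaled to assigned reads. Features needed 30 reads over the pair and were called at a ratio of 4 or more or of 0.25 or less, with 3 reads in place of a count of 0. Counting intervals are exact Clopper-Pearson 95% ones; reads were not counted as molecules. The difference between strains was fitted in edgeR 4.0.16 (R 4.3.3, limma 3.58.1; glmQLFit, TMM) with strain as a block, TDP2 and its interaction with prg-1, two-sided with Benjamini-Hochberg adjustment. Strain pairs the libraries by the genotype in the labels. The fit took features with at least 10 reads in some library and a sum of at least 30. The fit left 3 residual degrees of freedom, which come from the 4 other strains (prior degrees of freedom 8.32, median coefficient of variation 0.496), so prg-1 is assumed to vary as they do. The procedure was also run on simulated data, but what share of true differences it can find is not given here. DESeq2 1.42.0 was an alternative. Python 3.11.15 with numpy 2.4.6, pandas 2.3.3, scipy 1.17.1 and matplotlib 3.10.9 did the rest.

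The members and gene lists were chosen with earlier results of these data known. Named features are, by class and strand, the 3 with most reads in the pair; in the piRNA, microRNA and protein-coding classes the 3 highest and 3 lowest ratios at 100 or more reads; of each list the 2 most read members and the extreme ratios; the 6 loci with most mature reads in untreated control; and the mutated genes. The text says where others were chosen after their values were seen; that also holds for the members named within microRNA families and for the siRNA targets. Whether the libraries came from separate cultures is not stated. No sequences are printed.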

Additional observations from a re-analysis of the deposited data

Results flagged for a closer look

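The change of mature piRNA reads with TDP2 in prg-1 ran against that of the 4 other strains with both libraries when scaled to assigned reads. The log2 ratio of its share, TDP2 over untreated, was 3.45 in prg-1, and it was below 0 in tofu-6(ust94), pics-1, erh-2 and control. Under microRNA scaling the direction turned in erh-2 (0.90) and tofu-6(ust94) was at 0.00, so the opposite direction does not hold for all 4 strains there. The difference was not tested as a class, since 1 strain against 4 cannot give an exact permutation p under 0.2. The untreated prg-1 library held 241 mature reads, and 1 feature held 28.8% of the 2250 mature reads with TDP2. At the 521 loci with 10 or more mature reads in untreated control, prg-1 had 141 mature reads with TDP2 and 90 untreated. Most of the prg-1 TDP2 mature reads thus lay at other loci.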

How the results depend on the processing

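Precursor, mature piRNA and protein-coding antisense reads were higher with TDP2 under every scaling tried; the microRNA ratio, lower in each, has no microRNA scaling. Scaled to microRNA reads, the precursor ratio was 58.1, the mature piRNA ratio 43.7 and the protein-coding antisense ratio 50.5; scaled by TMM factors they were 9.70, 7.29 and 8.43, and the microRNA ratio was 0.167. Scaled to reads outside the 4 structural classes, the precursor ratio was 22.4, the mature 16.8, the antisense 19.4 and the microRNA 0.385; leaving out also the reads opposite structural genes, an alternative chosen after seeing the data, the microRNA ratio was 0.241 and the antisense 12.2. There were 9.18 precursor reads per mature read with TDP2 without the most read feature of each kind. Features 4-fold higher numbered 7161 by microRNA scaling, 6098 at 10 reads and 1629 at 100 reads, against 4033. Features 4-fold lower numbered 163 scaled outside the 4 structural classes, 70 by microRNA scaling, 465 at 10 reads and 621 past 2-fold, against 298. In the test between strains, with no filter on low counts 4 were higher and 11 lower, and by the DESeq2 Wald test 1 and 1; leaving out each other strain in turn gave 0 to 4 higher and 0 to 46 lower, with counts above 0 only without tofu-6(ust94). DESeq2 size factors, microRNA scaling and robust estimation left both counts at 0 in edgeR. No paired analysis was possible because each library is the only one of its group, beyond the strain block already in the test between strains. With 1 library a side, the spread between cultures is unknown, and counts under about 10 reads limit most mature piRNA values.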
